A study of Mus musculus with 36 samples.

Results

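A set of 9 long noncoding RNAs was followed through liver regeneration in young and old mice: the nuclear RNAs Malat1 and Neat1, the small nucleolar RNA (snoRNA) host RNAs Gas5, Snhg1, Snhg8 and Snhg12, and the imprinted RNAs Meg3, Rian and Mirg. Members were taken by gene symbol, and all 9 had a row among the 21955 symbols of each count table. Of the 9, 8 passed the filter on low counts that left 13436 genes for testing, and Mirg did not. Livers came from C57BL/6JN mice, an inbred laboratory strain, that were young (4 months) or old (18 months). Each age was sampled at 6 time points of regeneration, labelled before, 48, 72, 96, 120 and 240, and the labels give neither a unit for these numbers nor the way regeneration was brought about. With 3 libraries in a group, called biological replicates by the submitters, ribosomal RNA-depleted total RNA was read in 12 groups and 36 libraries. No group carried an engineered allele or a drug according to the labels, and the submitters named old liver as the treated group.

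Long noncoding RNAs act as RNA and are not translated into large proteins. Malat1 is a very abundant RNA of nuclear speckles, where splicing factors gather, and the long form of Neat1 is the scaffold of paraspeckles, nuclear bodies that hold RNA-binding proteins. snoRNA host genes carry snoRNAs, guides for the chemical modification of ribosomal RNA, in their introns. Many of their spliced RNAs begin with a run of pyrimidines (a 5′ terminal oligopyrimidine, or TOP, start), which is shared with ribosomal protein messages, and are removed by nonsense-mediated decay. Gas5 was named for its accumulation in growth-arrested cells. Meg3, Rian and Mirg lie one after the other in the imprinted Dlk1-Dio3 region and are read from the maternal chromosome, with many snoRNAs and microRNAs inside them. The region is active in the fetus and is expressed at low levels in adult liver.

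Positions are given for GRCm38 from the GENCODE M21 annotation. Malat1 (chr19:5795690-5802672, minus strand) and Neat1 (chr19:5824708-5845478, minus strand) are neighbours with a gap of 22.0 kb, and both are annotated as lincRNA. Gas5 lies at chr1:161034422-161038539 on the plus strand and meets Zbtb37 on the opposite strand. Snhg1 lies at chr19:8723475-8726443 (plus) with Snord22 inside it, Snhg8 at chr3:123507552-123508404 (minus) with Snora24 inside it, and Snhg12 at chr4:132308623-132311024 (plus) with Snora16a, Snora44, Snora61 and Snord99 inside it. Meg3 (chr12:109541001-109571726), Rian (chr12:109603940-109661716) and Mirg (chr12:109729764-109749460) follow each other on the plus strand with gaps of 32.2 kb and 68.0 kb. Use of strand in the counting is not given in the sources used here, so reads of Gas5 and Zbtb37, or of Malat1 and Meg3 and the predicted genes opposite them, cannot be told apart where they overlap. In GENCODE, exons of all transcripts together cover the whole of Snhg1 (2969 bases), Snhg8 (853) and Snhg12 (2402). The annotation used in the counting is not given, so it is not known how reads of introns and snoRNAs inside these hosts were counted. Levels per kilobase below use the GENCODE lengths.

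Start-site windows of 300 bases (250 before and 50 from the annotated start, which is base +1) are shown for the 4 snoRNA hosts, because a pyrimidine start is the feature these RNAs are known for, and for Meg3 and Rian, which carried the age difference described below. Sequences are RefSeq's for GRCm38.p6, and 8 of the 9 members had a window, with none for Neat1. Capitals mark the longest run of C and T within 25 bases on either side of the start. For Gas5 the second of its 2 annotated starts is shown, and for Meg3 the first of 2.
Gas5, chr1:161034916-161035215, plus strand: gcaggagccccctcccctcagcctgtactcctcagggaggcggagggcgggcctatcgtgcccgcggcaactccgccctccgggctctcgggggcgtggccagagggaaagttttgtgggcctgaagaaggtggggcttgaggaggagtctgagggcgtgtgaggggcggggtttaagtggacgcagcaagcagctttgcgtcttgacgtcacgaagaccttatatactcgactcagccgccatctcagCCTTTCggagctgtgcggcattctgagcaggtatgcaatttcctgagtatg
Snhg1, chr19:8723237-8723536, plus strand: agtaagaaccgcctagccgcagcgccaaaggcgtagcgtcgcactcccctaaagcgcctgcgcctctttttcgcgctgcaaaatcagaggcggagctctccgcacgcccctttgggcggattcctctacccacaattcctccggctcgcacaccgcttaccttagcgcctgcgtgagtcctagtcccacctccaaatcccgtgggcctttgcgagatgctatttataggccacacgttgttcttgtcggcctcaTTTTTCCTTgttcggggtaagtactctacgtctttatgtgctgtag
Snhg8, chr3:123508287-123508586, minus strand: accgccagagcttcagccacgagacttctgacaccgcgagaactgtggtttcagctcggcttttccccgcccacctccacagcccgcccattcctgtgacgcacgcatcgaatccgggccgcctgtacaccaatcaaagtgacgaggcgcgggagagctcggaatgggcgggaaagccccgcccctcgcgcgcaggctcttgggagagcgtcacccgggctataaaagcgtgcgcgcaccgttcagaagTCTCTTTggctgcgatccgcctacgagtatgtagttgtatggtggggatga
Snhg12, chr4:132308428-132308727, plus strand: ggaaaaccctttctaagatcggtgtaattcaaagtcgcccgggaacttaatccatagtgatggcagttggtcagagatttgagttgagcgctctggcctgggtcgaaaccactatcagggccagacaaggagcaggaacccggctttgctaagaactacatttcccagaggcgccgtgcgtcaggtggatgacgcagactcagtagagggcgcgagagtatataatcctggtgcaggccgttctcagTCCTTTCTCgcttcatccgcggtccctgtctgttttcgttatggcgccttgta
Meg3, chr12:109540746-109541045, plus strand: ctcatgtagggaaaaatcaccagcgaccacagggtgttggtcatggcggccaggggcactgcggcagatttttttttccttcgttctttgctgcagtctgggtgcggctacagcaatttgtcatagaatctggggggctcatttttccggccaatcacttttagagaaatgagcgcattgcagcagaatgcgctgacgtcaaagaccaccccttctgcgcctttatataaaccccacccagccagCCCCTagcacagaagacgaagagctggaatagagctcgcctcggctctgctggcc
Rian, chr12:109603695-109603994, plus strand: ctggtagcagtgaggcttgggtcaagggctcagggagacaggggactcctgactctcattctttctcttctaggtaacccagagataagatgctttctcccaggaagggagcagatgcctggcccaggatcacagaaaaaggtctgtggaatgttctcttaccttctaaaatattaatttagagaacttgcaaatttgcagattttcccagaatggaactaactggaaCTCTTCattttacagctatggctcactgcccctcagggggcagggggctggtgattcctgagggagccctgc

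The pyrimidine run spanned the annotated start in Gas5 (6 bases from position -1), Snhg8 (7 bases from -1) and Snhg12 (9 bases from -3). It began at position 5 in Snhg1, where it held 9 bases. Runs of at least 6, 7 and 9 bases stood in 43.9%, 29.3% and 13.3% of all 32841 windows, so runs of this length were common near starts. In Meg3 the run held 5 bases, and a run of at least 5 stood in 64.8% of windows. At the other starts of Gas5 and Meg3 the runs were shorter: 3 bases from position -22 at the first Gas5 start (chr1:161034351-161034650; a run at least as long in 96.3% of windows), and 4 bases from position 19 at the second Meg3 start (chr12:109545148-109545447; 84.4%). Members that are not snoRNA hosts of this group also held runs: 6 bases from -22 in Rian (43.9%), 14 bases from -23 in Mirg (2.6%) and 4 bases from -15 in Malat1 (84.4%). The run in Mirg was thus the longest. CpG dinucleotides numbered 19 in the Gas5 window, 25 in Snhg1, 30 in Snhg8, 18 in Snhg12, 13 in Meg3 and 0 in Rian, against a median of 7 over all windows. The window of the other Gas5 start held 33, with 5 GGGCGG matches, and that of the other Meg3 start held 1, with none of the motifs named next. Motifs were searched on both strands, namely CACGTG (in 7.15% of windows), TATAAA (13.6%), CCAAT (37.4%), GGGCGG (35.7%) and CCGGAA (14.9%). GGGCGG occurred 3 times in Gas5, once in Snhg1 and 4 times in Snhg8. TATAAA occurred in Snhg1, Snhg8 and Meg3, where its 2 matches overlap, CCAAT in Snhg8 and Meg3, and CCGGAA in Meg3. The Snhg12 and Rian windows held none of these motifs. These matches describe letters in the windows and do not show that a factor binds.

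Total counts per library ran from 2328233 to 6034446, with medians of 4359436 in young and 4514481.5 in old. Values are given as CPM, which scales a count to library depth, here with totals adjusted by the TMM method. All 8 hepatocyte markers were detected. In each of the 12 groups, 1 library held Y-linked transcripts at 180 to 309 CPM summed over 4 genes, and the other 24 held at most 0.211. Xist, an RNA of female cells, read 0 to 2.92 CPM in the 12 libraries with Y-linked transcripts and 2804 to 4104 CPM in the other 24. By these transcripts the sets read as male and female liver, so each group mixed the sexes. The labels give no sex, so these sets of 12 and 24 libraries are defined from the data, and results that touch them are given in both. P-values measure the spread between libraries of a group, which may be partly technical. In bulk tissue, fewer cells of a type and less RNA per cell cannot be told apart.

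Set per kilobase of annotated exon, Malat1 was the most abundant member, with a median over the 36 libraries of 2986 CPM per kb (lowest 1873, highest 3964), and made up a median of 2.13% of all counts. Neat1 followed with 119 CPM per kb (52.7 to 572). Snhg8, at 25 (16.9 to 33.0), and Gas5, at 23.2 (10.7 to 38.9), overlapped in level, as did Snhg12, at 3.05 (1.3 to 5.82), and Snhg1, at 2.57 (1.58 to 6.69). Meg3 had a median of 0.200 CPM per kb (0.0183 to 1.43) and Rian of 0.119 (0 to 0.771), also with overlap. Mirg had a median of 0. The spread within groups also differed between members. The standard deviation of log2(CPM + 1) within groups was 0.94 for Meg3, which was above that of 98.3% of the 10675 tested genes with a mean of at least 5 CPM, and 0.78 for Neat1, above 96.9% of them. It was also 0.78 for Rian, whose mean lay under that limit. It was 0.26 for Malat1 and 0.20 for Snhg8, the latter above 22.7% of them.

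The called changes over time were all in snoRNA hosts. Calls are adjusted p-values under 0.05 from edgeR's quasi-likelihood test, adjusted by Benjamini-Hochberg over all 13436 genes. Each later time point was set against the same before libraries, so the comparisons within an age share their controls. In young liver 2 of the 8 tested members, Gas5 and Snhg1, were called at 48, where 22.1% of all genes were called, and the same 2 at 72 (17.5% of genes). None was called in young at 96 (1.44% of genes), 120 (0.595%) or 240 (0.260%), where 2, 0 and 1 members had an unadjusted p under 0.05 and DESeq2 called 0 at each. In old liver 3 members were called at 48 (24.3% of genes), 2 at 72 (12.6%), 1 at 96 (6.85%) and 1 at 120 (4.05%). At 240 (0.141% of genes) edgeR called 0, DESeq2 called 0, and 1 member had an unadjusted p under 0.05. A single test of any change over the 6 times called 2 members, Gas5 and Snhg1, in young (21.5% of genes) and the same 2 in old (20.6%). Every called member was higher than before. Counts over 8 members are too few to set these RNAs apart from the share of all genes called.

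Gas5 rose in both ages. Its level before was 46.8, 69.9 and 50.1 CPM in the 3 young libraries and 42.3, 47.1 and 47.2 CPM in the 3 old libraries. In young liver it was 82.2, 86.2 and 141 CPM at 48 and 109, 112 and 146 CPM at 72, and all 6 of these libraries stood above the 3 before. The log2 change was 0.89 ± 0.26 (SE, adjusted p = 0.013) at 48 and 1.14 ± 0.26 (adjusted p = 0.00321) at 72. At 96, 120 and 240 the young means were 88.7 ± 5.92, 76.3 ± 31.7 and 96.3 ± 19.1 CPM (SD, n = 3), none of them called, and only at 120 did the libraries overlap those before. The log2 changes at these times were 0.68 ± 0.26, 0.46 ± 0.26 and 0.79 ± 0.26 (adjusted p = 0.189, 0.495 and 0.487).

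In old liver Gas5 stood at 87.4, 138 and 113 CPM at 48, 77.6, 84.5 and 131 CPM at 72, 98.3, 104 and 105 CPM at 96, and 83.2, 122 and 86.8 CPM at 120. All 12 of these libraries exceeded the 3 old libraries before, so the groups did not overlap. The log2 change was 1.31 ± 0.26 (adjusted p = 0.000739) at 48, 1.1 ± 0.26 (0.006) at 72, 1.17 ± 0.26 (0.00644) at 96 and 1.1 ± 0.26 (0.016) at 120. At 240 the 3 values of 73.5, 70.1 and 74.8 CPM were still above those before, and the log2 difference of 0.68 ± 0.26 was not called (adjusted p = 0.466). Gas5 thus passed the test at 4 time points in old and 2 in young liver, and the difference in its course between the ages was not called (interaction, adjusted p = 0.616). Some calls rested on single libraries. The young call at 48 was lost without young before replicate 1 or 3 or young 48 replicate 3, with an adjusted p of up to 0.133. The old call at 72 was lost without old 72 replicate 3 (0.0612), and that at 120 without old before replicate 2 or 3 or old 120 replicate 2 (up to 0.0735). The young test of any change (adjusted p = 0.0225) was lost without young before replicate 1 or 3 or young 72 replicate 3 (up to 0.0956).

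Snhg1, whose introns carry a group of box C/D snoRNAs, had values before of 5.62, 6.47 and 5.57 CPM in young and 4.70, 6.03 and 5.48 CPM in old liver. Young libraries reached 10.9, 7.50 and 11.1 CPM at 48 and 11.3, 11.9 and 10.4 CPM at 72, without overlap with those before. Old libraries reached 15.8, 19.9 and 11.2 CPM at 48 and 10.1, 7.96 and 9.19 CPM at 72, also without overlap. The peak group mean was at 72 in young (11.2 ± 0.740 CPM, SD, n = 3) and at 48 in old (15.6 ± 4.30). The log2 change in young was 0.75 ± 0.22 (adjusted p = 0.0147) at 48 and 0.93 ± 0.22 (0.00456) at 72. In old it was 1.53 ± 0.22 (2.93e-05) at 48 and 0.75 ± 0.22 (0.027) at 72. From 96 on, Snhg1 passed the test in neither age, with group means of 6.73 to 8.66 CPM. The young call at 48 was lost without young before replicate 1 or 3 or young 48 replicate 1 or 3 (adjusted p up to 0.0665), and the old call at 72 without old before replicate 1 or 3 or old 72 replicate 1 or 3 (up to 0.0768), with only the groups compared (0.0757) and with only libraries without Y-linked transcripts (0.186). The young test of any change (adjusted p = 0.029) was lost in 6 such fits, without young before replicate 1 or 3, young 48 replicate 1 or 3, or young 72 replicate 1 or 2 (up to 0.0861). With only the libraries without Y-linked transcripts, 2 a group, the young changes at 48 of Gas5 (0.51, adjusted p = 0.0981) and Snhg1 (0.65, adjusted p = 0.181) were not called.

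**Figure D1:**
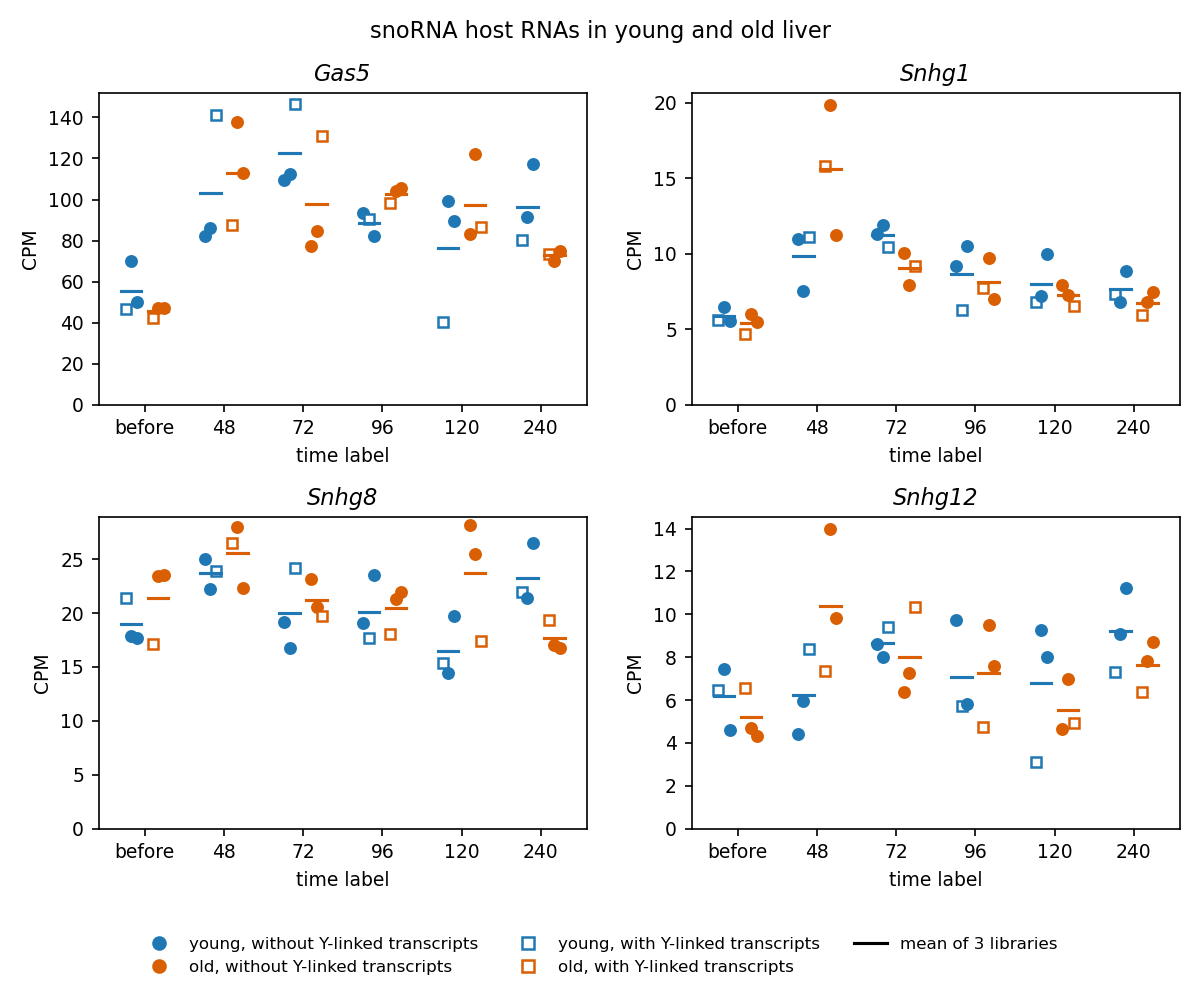
CPM of Gas5, Snhg1, Snhg8 and Snhg12 on the vertical axes against the time labels, with a point for each library, young and old side by side, and the group mean as a line. Gas5 rises from 42.3 to 69.9 CPM before to 77.6 to 146 CPM at 48 and 72, while Snhg8 stays between 14.5 and 28.2 CPM in all 36 libraries.

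Snhg12, which carries box H/ACA snoRNAs and Snord99, rose at 1 of the 10 comparisons with before, old liver at 48. Its old libraries held 6.57, 4.69 and 4.33 CPM before and 7.34, 14.0 and 9.82 CPM at 48, without overlap (log2 change 1.00 ± 0.33, adjusted p = 0.0297). That call was lost without old before replicate 2 or 3 or old 48 replicate 2, with an adjusted p of up to 0.150, and with only the groups compared (0.134). The test of any change in old was not called for Snhg12 (adjusted p = 0.161), but was with only libraries without Y-linked transcripts (0.0424). In young liver the values were 6.45, 7.46 and 4.6 CPM before and 4.41, 5.95 and 8.38 at 48, with overlap and means of 6.17 ± 1.45 and 6.25 ± 2.00 CPM (SD, n = 3). Snhg8, host of Snora24, was the steadiest of the 4 hosts, with group means from 16.5 ± 2.80 CPM (SD, n = 3) in young at 120 to 25.6 ± 2.93 CPM in old at 48. It passed the test at no time in either age. In young liver at 48 the 3 libraries stood above those before, with a log2 difference of 0.32 ± 0.18 (95% interval -0.04 to 0.68, adjusted p = 0.202).

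Between the ages 1 of the hosts, Snhg1, differed at 48 in the fit of all libraries. Old against young at 48 called 1 of the 8 members, Snhg1, where 11.4% of all genes were called. DESeq2 also called 1, but that member was Neat1. The 3 old Snhg1 libraries at 48 stood above the 3 young ones, the closest being 11.2 against 11.1 CPM, and the log2 difference was 0.66 ± 0.21 (adjusted p = 0.0354). It was not called without any one of young 48 replicates 1, 2 and 3 or old 48 replicates 1 and 2 (log2 0.43 to 0.85 over all libraries left out, adjusted p up to 0.304). Nor was it called under total-count scaling, without the filter, with DESeq2, with only the groups compared or with only libraries without Y-linked transcripts (adjusted p up to 0.312 over the alternatives). In that last fit, with 2 libraries a group, Snhg12 was called higher in old liver at 48 (log2 1.202, adjusted p = 0.0239). With all libraries the Snhg12 difference was 0.75 ± 0.33 and was not called (adjusted p = 0.146). The age by time interaction, where 2.91% of genes were called, called 0 members by edgeR and 0 by DESeq2. Snhg1 and Snhg8 had an unadjusted p under 0.05 there, with adjusted p of 0.313 and 0.322.

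At the other times, the age comparison called few genes of any kind. Old against young called 0 members before (0.0595% of genes), 0 at 72 (0% of genes), 0 at 96 (0.402%), 0 at 120 (0.0819%) and 0 at 240 (0.0149%) by edgeR. Members with an unadjusted p under 0.05 numbered 2, 0, 2, 1 and 3 in that order, and DESeq2 called 0, 0, 1, 0 and 0, the 1 being Meg3 at 96. Averaged over the 6 times, 2 of the 8 members, Meg3 and Rian, were called, where 6.13% of genes were called, and both were lower in old liver. None of the 4 hosts was called in the average: the log2 difference of old minus young was -0.05 ± 0.10 for Gas5, -0.02 ± 0.09 for Snhg1, 0.09 ± 0.07 for Snhg8 and -0.02 ± 0.14 for Snhg12.

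A list of host RNAs outside the set held snoRNA hosts and the microRNA host Mir17hg. At 48, 2 of its 12 tested RNAs were called in young liver and 5 of 12 in old, all higher than before. Of all genes, 22.1% and 24.3% were called there in either direction. Of 18 listed host RNAs that are not members, 14 had a row and 12 were tested. In young liver at 48, 2 of the 12 rose, Mir17hg (log2 1.96), the host of the miR-17-92 cluster, and Snhg5 (0.92), and 0 fell. Snhg5 was thus the only snoRNA host of the list called in young, and the counts and medians here include Mir17hg. In old liver at 48, 5 rose and 0 fell: Snhg7 (1.86), Snhg4 (1.85), Snhg5 (1.51), Snhg3 (1.29) and Mir17hg (1.2). The median log2 change of the 12 was 0.48 in young and 1.23 in old, beside -0.01 and 0.01 over all genes. Snhg4 was also higher in old than in young liver at 48 (1.70, adjusted p = 0.0211). At 72 edgeR called 0 of the 12 in either age, with medians of 0.59 in young and 0.32 in old.

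Genes that work with the hosts' products were described from the lists as well. The shares of all genes called at 48 were 22.1% in young and 24.3% in old liver, and several of the counts here lay near them. Of 15 tested proteins that form or assemble snoRNA particles, 5 rose in young liver at 48, among them Ruvbl2 (1.40), a chaperone ATPase, and Nop58 (1.37), a core box C/D protein. In old liver 4 rose, among them Nop58 (1.13) and Gar1 (1.07), a core box H/ACA protein. The medians of the list were 0.41 and 0.04. A list of genes whose messages carry TOP starts held translation factors and others, among the latter Nap1l1, a nucleosome assembly protein. Of its 15 tested genes, 1 rose and 1 fell in young at 48, Nap1l1 (0.67) and Eef1a1 (-0.53). In old 5 rose, among them Nap1l1 (1.19) and the translation factor Eef1g (1.07). The medians of this list were 0.23 and 0.47. Of 10 nonsense-mediated decay factors, 3 rose and 1 fell at 48 in each age. Smg5 (0.79) and Upf3a (0.70) rose and Smg1 (-0.45), the kinase of the pathway, fell in young. Upf3a (1.05) and Smg5 (0.95) rose and Smg6 (-0.43), its endonuclease, fell in old.

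Marker lists of several cell types also held called genes at 48. All 8 markers of dividing cells rose in young liver at 48 and 4 of 8 in old, with median log2 changes of 5.60 and 2.03, and at 48 7 of 8 were lower in old than in young. Their summed level was 53.5 to 79.9 CPM in young liver before and 1939 to 3663 CPM at 48, and 49.5 to 116 and 48.0 to 748 CPM in old, where libraries at 48 overlapped those before. The part of dividing cells in the host result was not tested. Of 8 hepatocyte markers, 2 fell in young and 4 in old liver at 48, among them the drug-metabolizing enzyme Cyp2e1 (-1.14 and -1.09). Of 8 markers of sinusoidal endothelium, 5 fell in young, among them Oit3 (-1.11), and 3 in old, among them Kdr (-0.97). Of 9 macrophage and monocyte markers, 1 rose in young, Marco (2.81), and 4 fell in old, among them Lyz2 (-1.67). Of 3 T and B cell markers, 0 were called in young and 2 fell in old, Cd79b (-2.67) and Ms4a1 (-2.33). Of 9 stellate cell and fibroblast markers, 1 rose in each age, Lum (1.33) in young and Col1a1 (1.91) in old, and the neutrophil marker S100a9 (3.39) rose in young. In old against young at 48, the cholangiocyte marker Spp1 (2.03) and the endothelial marker Stab1 (0.55) were higher and the fibroblast marker Lum (-1.22) was lower. The part of these cell types in the host result, Snhg1 included, was not tested.

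Of 25 snoRNAs named for hosts among the members, 6 had a row and 1, Snord22 of Snhg1, was tested. Snord22 summed to 1195 counts in young and 992 in old libraries. It was called in none of the listed 48 and 72 comparisons with before, with log2 differences of 0.54 in young and 0.25 in old at 48. Snord47 of Gas5 held 55 counts in young and 64 in old and at most 8 in a library.

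By edgeR in the fit of all libraries, neither Malat1 nor Neat1 had a called change over time or a called age difference. Malat1 held 17811, 23959 and 22135 CPM in young liver before and 13613, 17180 and 16192 CPM at 48. All 3 young libraries at 48 were below those before, by a log2 difference of -0.44 ± 0.24 that did not pass the test (adjusted p = 0.191). In old liver the corresponding values were 13079, 20346 and 23782 CPM before and 14034, 21052 and 22464 CPM at 48, which overlapped (log2 difference 0.01 ± 0.24). Group means over the 12 groups ran from 15662 ± 1842 CPM (SD, n = 3) in young at 48 to 24121 ± 4131 in young at 240. Averaged over time, old minus young was -0.01 ± 0.10, the smallest age difference among the 8 tested members.

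Neat1 varied widely between libraries of a group. Young libraries held 6162, 2769 and 2404 CPM before, 1392, 2298 and 1095 CPM at 48 and 7983, 2048 and 4067 CPM at 72. The 3 libraries at 48 were below those before, with a log2 difference of -1.24 ± 0.59 that was not called (adjusted p = 0.135; called with only the groups compared, 0.0332). Old libraries held 1119, 4000 and 4963 CPM before and 1116, 11888 and 2344 CPM at 48. The highest value of the series, 11888 CPM, came from old 48 replicate 2. Old minus young at 48 was 1.68 ± 0.60 by edgeR, which was not called (adjusted p = 0.066), and 1.67 by DESeq2, which was (adjusted p = 0.0416). The edgeR value was 0.11 (adjusted p = 0.954) without that library. Without old 48 replicate 1 or 3, the comparison was called (adjusted p as low as 0.0142). At 120 the 3 old libraries (2953, 4396 and 2760 CPM) stood above the 3 young ones (2090, 2520 and 2484), with a log2 difference of 0.51 ± 0.58.

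**Figure D2:**
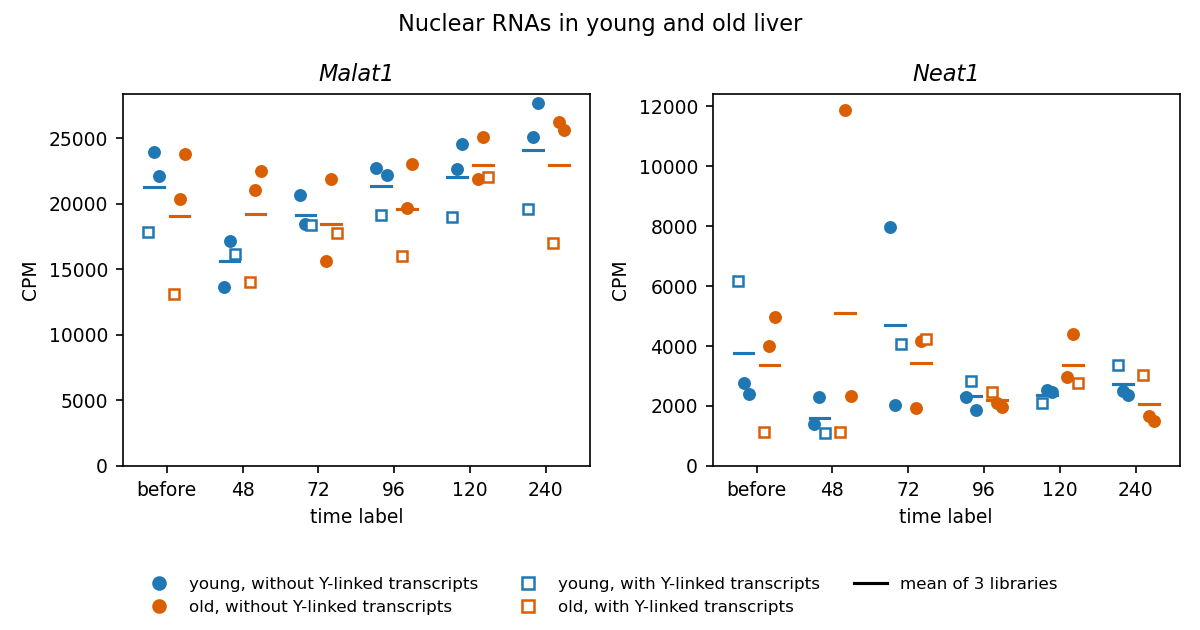
CPM of Malat1 and Neat1 against the time labels, with a point for each library, young and old side by side, and the group mean as a line. Malat1 lies between 13079 and 27683 CPM throughout, and Neat1 between 1095 and 11888 CPM with the highest point in old liver at 48.

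Malat1 did differ by the Y-linked split. Libraries with Y-linked transcripts held 13079 to 22056 CPM (median 17781, n = 12) and the others 13613 to 27683 CPM (median 22322, n = 24). The Y-linked library was the lowest of its 3 in 9 of the 12 groups and the highest in 0. Fitted over all libraries, the log2 difference was -0.32 ± 0.09 (adjusted p = 0.0159). Malat1 was the 1 member of 8 called in this comparison, where 8.48% of genes were called. Within old liver alone 3 of 8 members, Malat1, Meg3 and Rian, were called (7.03% of genes), with -0.42 for Malat1 (adjusted p = 0.0315). That call was lost without old replicate 1 at before, 48, 96 or 240 or without old 72 replicate 2 (adjusted p up to 0.107), and without the filter (0.0581). Within young liver edgeR called 0 of 8 (1.72% of genes), and 0 had an unadjusted p under 0.05. DESeq2 was not run on comparisons of this split.

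Proteins of paraspeckles and speckles were described from the lists at 48, where 22.1% of all genes were called in young liver and 24.3% in old. Of 10 paraspeckle proteins, 5 rose in young liver at 48, among them Rbm14 (0.78) and Tardbp (0.72), and 3 in old, among them Pspc1 (0.89) and Tardbp (0.63). The medians were 0.26 and 0.28, beside -0.01 and 0.01 over all genes. Of 11 nuclear speckle proteins, 4 rose in young at 48, among them the splicing factors Srsf3 (0.69) and Srsf2 (0.64), and 2 in old, Srsf3 (0.45) and Srsf6 (0.34), with medians of 0.27 and -0.01. In old against young at 48, 1 of each list was lower, the paraspeckle protein Nono (-0.54) and Srsf2 (-0.65).

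Averaged over all libraries, Meg3 and Rian were lower in old liver. The estimated difference was larger in the libraries without Y-linked transcripts, and a test of that dependence, described below, was called for Meg3 and not for Rian. Meg3 read 0.832, 8.70 and 11.6 CPM in the young libraries before, 3.10, 3.88 and 3.70 CPM at 48, and 5.93, 17 and 4.33 CPM at 72. It then read 17.4, 23.2 and 12.4 CPM at 96, 7.21, 10.7 and 8.28 CPM at 120, and 5.35, 25.9 and 7.23 CPM at 240. Old libraries read 3.52, 0.447 and 0.913 CPM before, 1.33, 1.62 and 0.409 CPM at 48, 1.44, 2.11 and 6.51 CPM at 72, 3.01, 0.620 and 1.13 CPM at 96, 0.332, 1.22 and 15.8 CPM at 120, and 1.1, 1.36 and 0.425 CPM at 240. At 48, 96 and 240 every old library was below every young one, and at before, 72 and 120 the groups overlapped. Averaged over time, the log2 difference was -2.18 ± 0.38 (adjusted p = 0.000657), a 4.52-fold lower level. It was between -2.67 and -2.0 when any 1 library was left out, with adjusted p of at most 0.00171. At single times it was largest at 240 (-3.79 ± 1.01) and 96 (-3.66 ± 0.97), neither of them called (adjusted p = 0.482 and 0.075). Meg3 at 96 was called without old 120 replicate 3 (adjusted p = 0.0412), with DESeq2 (0.0145), with only the groups compared (0.0246) and with a replicate block (0.0478). With only libraries without Y-linked transcripts it was called at before (-3.86, adjusted p = 0.0431), 96 (-4.11, 0.0358) and 240 (-4.33, 0.0476), and Rian at before (-4.90, 0.0250).

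Rian, the host of a large array of box C/D snoRNAs, read 0.416, 3.23 and 11.9 CPM in young libraries before, 1.31, 2.33 and 3.20 CPM at 48, and 3.06, 6.81 and 2.04 CPM at 72. It then read 6.20, 14.1 and 6.63 CPM at 96, 3.90, 4.45 and 5.42 CPM at 120, and 2.82, 9.56 and 3.21 CPM at 240. Old libraries read 1.41, 0.223 and 0.228 CPM before, 0.667, 0.405 and 0 CPM at 48, 1.03, 0.468 and 2.30 CPM at 72, 3.01, 0.620 and 0.281 CPM at 96, 0.663, 0.911 and 6.14 CPM at 120, and 1.32, 1.02 and 0.425 CPM at 240. The 1 library at 0 counts allows up to 0.614 CPM, taken as 3 counts of its total and covering counting error only. Old lay below young without overlap at 48, 96 and 240, the same times as for Meg3. Averaged over time the log2 difference was -2.22 ± 0.39 (adjusted p = 0.000588), a 4.67-fold lower level, and -2.52 to -1.96 when any 1 library was left out. These are small counts. Meg3 summed to 809 counts in young and 194 in old libraries, and Rian to 408 and 89.

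The filter on low counts asked for 2.25 CPM in enough libraries, and both RNAs met it mainly through young liver: 17 young and 4 old libraries for Meg3, 15 young and 3 old for Rian. Neither RNA changed over time by the test in either age. For any change over time the adjusted p was 0.250 in young and 0.159 in old for Meg3, and 0.397 and 0.307 for Rian. With only the libraries without Y-linked transcripts, 2 a group, Rian was lower in young liver at 48 than before by a log2 difference of -2.08 (adjusted p = 0.0451), a call not made with all libraries (-1.19 ± 0.81, adjusted p = 0.314).

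The age difference of Meg3 was larger in one set of libraries than in the other. In the 12 young libraries without Y-linked transcripts Meg3 ran from 3.10 to 25.9 CPM (median 9.72), and in the 12 old ones from 0.332 to 2.11 CPM (median 1.02), so the ages did not overlap. In the libraries with Y-linked transcripts it ran from 0.832 to 23.2 CPM (median 4.84, n = 6) in young and from 1.1 to 15.8 CPM (median 3.26, n = 6) in old, so they did. Rian showed the same arrangement. Without Y-linked transcripts it ran from 1.31 to 11.9 CPM (median 4.93) in young and from 0 to 1.03 CPM (median 0.446) in old. With them it ran from 0.416 to 14.1 CPM (median 3.01) in young and from 0.667 to 6.14 CPM (median 1.85) in old. In log2(CPM + 1), both RNAs were lower in old at 3 of the 6 times with Y-linked transcripts, with 1 library per group. The differences there ran from -2.59 to 1.30 for Meg3 and from -1.91 to 0.77 for Rian. Without Y-linked transcripts both RNAs were lower in old at all 6 times.

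**Figure D3:**
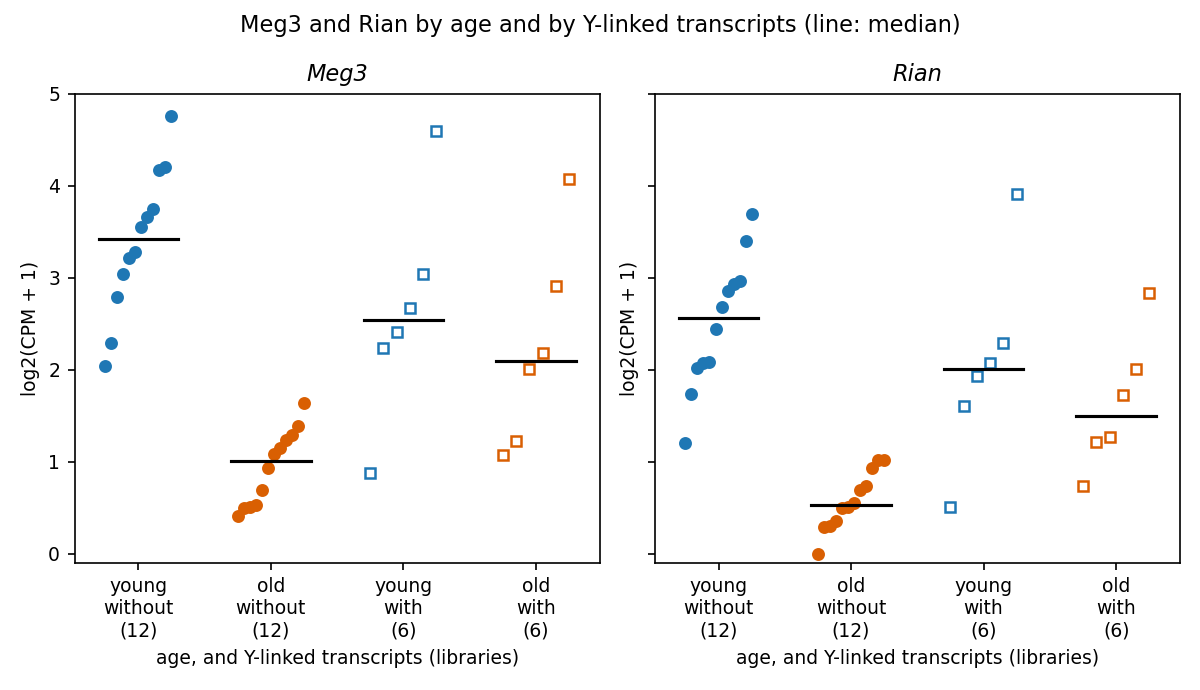
Log2(CPM + 1) of Meg3 and Rian by age and by the presence of Y-linked transcripts, with a point for each library and a line at the median. Without Y-linked transcripts the old Meg3 values end at 2.11 CPM and the young ones begin at 3.10, whereas with them the ages overlap.

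The split was then fitted with a term in each age, a choice made after the values had been seen. Within the libraries without Y-linked transcripts, 2 of 8 members were called for age (3.85% of genes): Meg3 at -3.43 ± 0.39 (adjusted p = 2.38e-06, 10.8-fold lower in old) and Rian at -3.39 ± 0.43 (1.22e-05, 10.5-fold). Of the 12 old libraries in that comparison, 5 held at most 3 counts of Meg3 and 11 at most 3 counts of Rian, so these folds rest on sums of 50 and 25 counts. Within the libraries with Y-linked transcripts edgeR called 0 of 8 members (2.51% of genes), and 0 had an unadjusted p under 0.05. Meg3 gave -0.59 ± 0.47 (adjusted p = 0.605) and Rian -0.90 ± 0.50 (0.410) there. The difference between these age effects was 2.84 ± 0.62 for Meg3 (adjusted p = 0.0348), the 1 member of 8 called, where 0.350% of genes were called. For Rian it was 2.49 ± 0.68 and was not called (adjusted p = 0.139; called without the filter, 0.0395).

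The Meg3 difference between the library sets depended on single libraries. Its call was lost in 16 of the 36 fits that left 1 library out, with log2 values of 2.25 to 3.29 and adjusted p of up to 0.167. Those libraries were young before replicates 1 and 2, young 72 replicate 3, young 120 replicates 1 and 2, young 240 replicate 1, old before replicates 1 and 3, old 72 replicates 1, 2 and 3, old 96 replicates 1 and 2, and old 120 replicates 1, 2 and 3. Rian was called there without young 96 replicate 2 (adjusted p = 0.0387). Within old liver, libraries with Y-linked transcripts were higher for Meg3 (2.10 ± 0.50, adjusted p = 0.00789) and Rian (2.08 ± 0.55, 0.0188). The Meg3 call was lost without old 120 replicate 3 (0.0874), and the Rian call without it or old 96 replicate 1 (up to 0.0936). Within young liver the log2 differences were -0.74 for Meg3 (adjusted p = 0.479) and -0.41 for Rian (0.804).

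**Figure D4:**
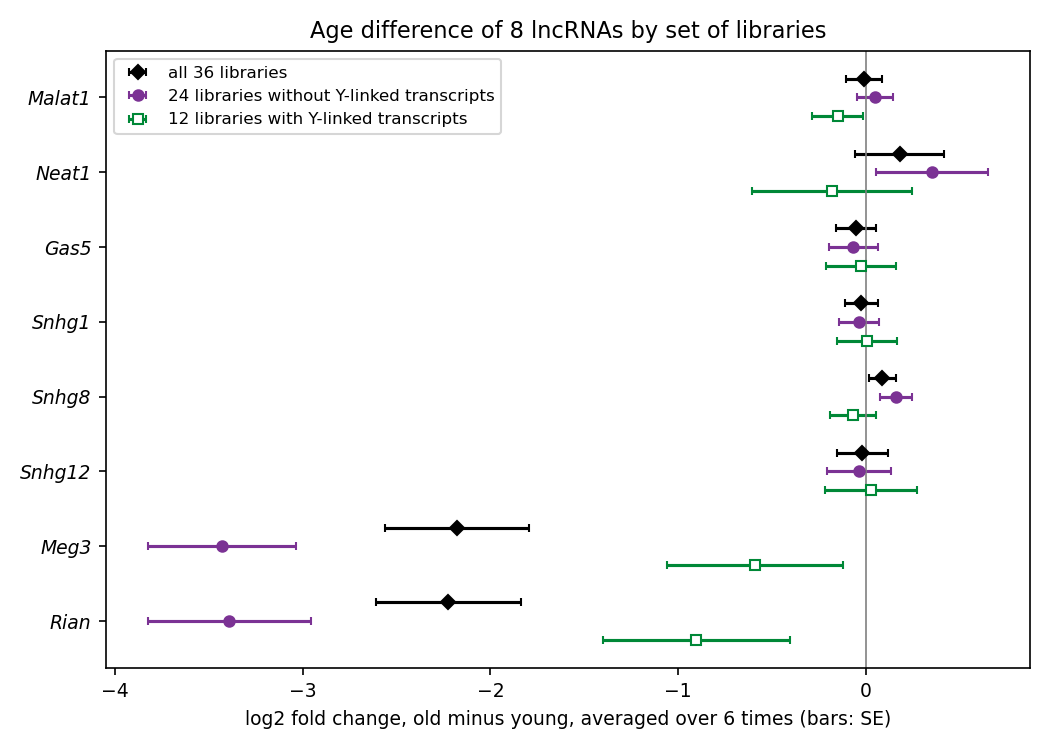
Log2 fold change of old minus young averaged over the 6 time labels for the 8 tested RNAs, in all libraries and within each set by Y-linked transcripts, with bars for the SE. Meg3 and Rian lie near -3.4 in libraries without Y-linked transcripts and nearer to 0 with them, while the other 6 RNAs lie around 0 in each set.

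Meg3 and Rian varied together from library to library. In log2(CPM + 1) Pearson's r was 0.923 over the 18 young libraries and Spearman's rho 0.932. Both had a permutation p of 1e-05, the smallest that 100000 resamples can give (two-sided, adjusted p = 0.00012 over 12 relations). Over the 18 old libraries r was 0.870 (permutation p = 5e-05, adjusted 0.0003) and rho 0.705 (0.00133, adjusted 0.00532). Without the 2 libraries farthest from the median of Meg3, r was 0.882 and 0.671. Within the young libraries without Y-linked transcripts r was 0.862 (permutation p = 0.0005, adjusted 0.002, n = 12). Within the old ones it was 0.393 (permutation p = 0.204, adjusted 0.204, n = 12), and 11 of those 12 libraries held at most 3 counts of Rian. With Y-linked transcripts it was 0.979 in young and 0.874 in old over 6 libraries each, with exact permutation p of 0.0139 and 0.0417 (adjusted 0.0238 and 0.0556). Without the 2 farthest these became 0.561 and 0.675, so they rest on those libraries. Of the 12 relations computed, 6 were for this pair and 6 for Gas5 and Snhg1. For the latter r was 0.696 in young and 0.663 in old libraries (rho 0.631 and 0.688; permutation p for r = 0.00078 and 0.003, adjusted 0.00234 and 0.0072), and 0.653 and 0.565 without the 2 farthest. These libraries span the time points, so both relations include the course over time. By the Y-linked split, r for Gas5 and Snhg1 was 0.638 (young) and 0.713 (old) without such transcripts and 0.826 and 0.583 with them.

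**Figure D5:**
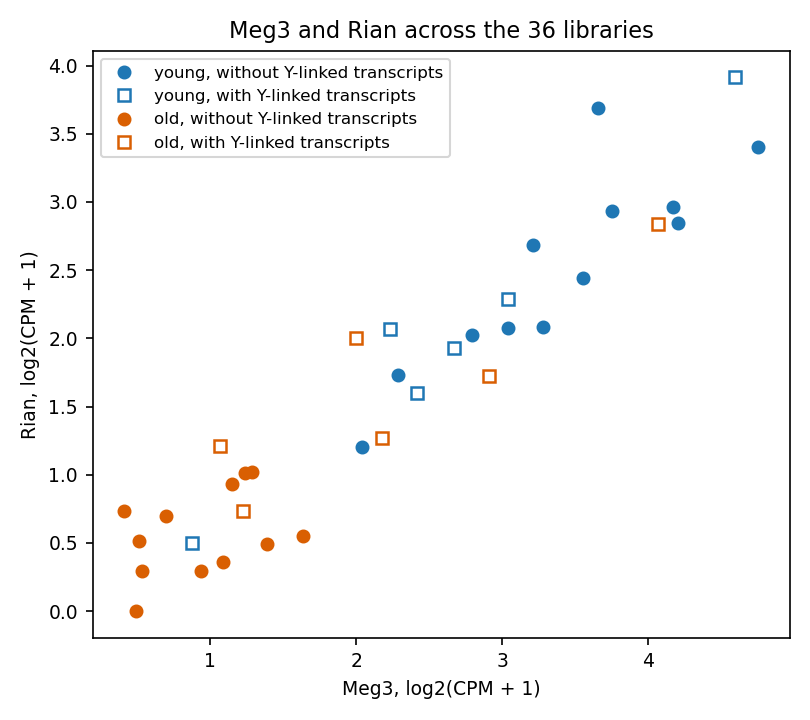
Rian against Meg3 in the 36 libraries, both as log2(CPM + 1), with colours for age and symbols for Y-linked transcripts. Young libraries spread along a line (r = 0.923), and old libraries without Y-linked transcripts gather at the low end.

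Mirg, the third imprinted RNA and a host of many microRNAs, summed to 26 counts over the series, 19 in young and 7 in old libraries, and a count was present in 16 of the 36 libraries with at most 3 in any of them. It was too low for a fold change. From the start of Meg3 to the end of Mirg, a stretch of 208 kb, 27 microRNA rows summed to 94 counts in young and 32 in old, with at most 4 counts in a row and library. The snoRNA AF357359 inside Rian held 38 counts in young and 6 in old. Of 6 listed neighbours in the region, 1, Wdr25, was tested, with an averaged age difference of 0.09 (adjusted p = 0.763). The paternally expressed Dlk1 and Rtl1 held 10 and 53 counts in young and 12 and 15 in old, and Dio3 43 and 33.

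Other imprinted genes did not share a direction with age. Of 22 listed, 17 were tested. Averaged over time 1 was higher in old, Airn (0.64), and 2 were lower, Grb10 (-0.62), a growth factor receptor adaptor, and Slc38a4 (-0.42), an amino acid transporter. The median was 0.03, beside 0.00 over all genes. Within the libraries without Y-linked transcripts 2 were higher, Peg3 (0.89) and Airn (0.81), and 3 were lower, Sgce (-1.39), Peg10 (-1.18) and Grb10 (-0.59). Within those with Y-linked transcripts edgeR called 0 of the 17. The difference between the age effects was called for 2 of the 17, where 0.350% of all genes were called. These 2 were Peg10 (2.10 ± 0.38, adjusted p = 0.0124) and Sgce (2.09 ± 0.41, 0.0142), neighbouring genes of another imprinted region. Both kept the call when any 1 library was left out.

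Markers of other liver cells were set beside the imprinted RNAs. Of 9 stellate cell and fibroblast markers, 3 were lower in old liver averaged over time, the collagen genes Col1a1 (-0.93), Col3a1 (-0.90) and Col1a2 (-0.84). The other 6 were not called, among them the stellate cell genes Lrat (0.09) and Reln (-0.05). Within the libraries without Y-linked transcripts 2 of the 9 were lower, and the summed level of the 9 was 332 to 971 CPM in young and 340 to 490 CPM in old. Within those with Y-linked transcripts the sums were 311 to 971 CPM and 240 to 575 CPM, and edgeR called 0 of the 9. Of 8 sinusoidal endothelial markers edgeR called 0 in the averaged age comparison, and their sums without Y-linked transcripts were 596 to 1024 CPM in young and 605 to 1090 CPM in old. No marker of either list had a mean of 0 CPM, and their part in the Meg3 and Rian result was not tested.

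Genes with the most similar courses over the 12 group means were listed for each member by Pearson's r of log2(CPM + 1), among 10264 candidates and with no test. Meg3 and Rian had the same 3: Lamb2, a laminin chain of basement membrane (r = 0.913 and 0.912), the homeobox gene Meis1 (0.894 and 0.891) and Pxdn, a matrix peroxidase (0.871 and 0.881). For Gas5 they were Sec11c (0.963), Brms1l (0.944) and the ribosomal protein gene Rps19 (0.936), and for Snhg1 Scamp5 (0.953), Slc35c1 (0.947) and Prrg4 (0.944). For Snhg12 they were Sec61a2 (0.904), the chaperonin subunit Cct2 (0.887) and Zcchc9 (0.871), and for Snhg8 Eml3 (0.905), Cdc123 (0.830) and Ppp1r21 (0.830). Malat1 was most like Clk1, a kinase of splicing factors (0.935), Prmt10 (0.910) and Mxd4 (0.909), and Neat1 like AI661453 (0.903), Atxn2 (0.851) and the histone methyltransferase Kmt2d (0.848). Over the 36 libraries, Pxdn remained among the top 3 for Meg3 and Rian, and 0 of 3 remained for each of the other 6.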

How the data were processed

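Total RNA of mouse liver was sequenced in 36 libraries, 3 for each of 12 groups of age and time label. The authors deposited whole-number counts per gene symbol, 1 table per library, not normalized. Per the submitters' processing notes, bcl2fastq 2.20.0, Trimmomatic 0.39, STAR 2.7.5b, SAMtools 1.10, Picard 2.20.8 and featureCounts were used with GRCm38 (mm10). Annotation and strand settings are not given in the sources used here. Per the labels' protocols, RNA was DNase-treated and depleted of ribosomal RNA, and ERCC mix 1 was added to young and mix 2 to old samples. With 0 ERCC rows in the tables, spike-ins were not used. Of the symbols, 27 read as dates.

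Tests used edgeR 4.0.16 (R 4.3.3) with TMM scaling (factors 0.930 to 1.133), filterByExpr on the 12 groups, 1 quasi-likelihood fit of all libraries without a block, and Benjamini-Hochberg adjustment within each comparison (common biological coefficient of variation 24.7%). On simulated counts of the averaged age comparison (13221 genes), 90.8% of 98 genes changed 2-fold and 100% of 97 changed 4-fold were called, and 4.62% of calls were false. The simulation held no change over time and no difference by Y-linked transcripts. Its rates cover genes of all levels and were not measured for RNAs as low and variable as Meg3 and Rian. Descriptive values used log2(CPM + 1). Totals of 2328233 to 6034446 counts per library limit the precision of Meg3, Rian and Mirg most.

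Alternatives tried were scaling by medians of ratios or by total count, other filters, DESeq2 1.42.0, only the groups compared, a replicate block, a Y-linked term, only libraries without Y-linked transcripts, and each library left out. Fits of the Y-linked split within ages, and the contrast of that split, were added after the values had been seen. A library was put in the Y-linked set above 50 CPM. The members and gene lists were chosen with earlier results of these data known. All members were named; from a list, up to 2 rising and 2 falling called genes with the largest change and a mean CPM of at least 1 were named per comparison. Genes named beyond that, where a count was 5 or fewer or as stellate cell markers, were chosen after their values were seen. Likeness took the 3 genes with the highest correlation among tested genes with a mean CPM of at least 5, without predicted genes and pseudogenes.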

Additional observations from a re-analysis of the deposited data

Results flagged for a closer look

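Old against young differed between the libraries with Y-linked transcripts and the others, by a test of that difference, for 3 imprinted genes. They were sought only among the members and the gene lists. Meg3 was 1 of 8 tested members, and Peg10 and Sgce were 2 of 17 other tested imprinted genes. Of all 13436 tested genes 47 (0.350%) were called in this test, and those outside the members and lists were not examined here. For Meg3 the log2 age effect was 2.84 higher with Y-linked transcripts (-0.59 against -3.43), with an adjusted p of 0.0348 that was lost in 16 of the 36 fits leaving out 1 library. For Peg10, a retrotransposon-derived imprinted gene, the difference was 2.10 (0.92 with against -1.18 without, adjusted p = 0.0124). Its level was 7.98 to 32.9 CPM in the 6 old libraries with Y-linked transcripts and 0.844 to 4.52 CPM in the 12 old ones without, and 6.23 to 15.6 and 1.34 to 15.3 CPM in young. For Sgce, the gene beside Peg10 in the same imprinted region, the difference was 2.09 (0.70 against -1.39, adjusted p = 0.0142), with 1.72 to 4.46 CPM in old libraries with Y-linked transcripts and 0.205 to 2.07 CPM in those without. Within old liver the Y-linked libraries were higher for Peg10 (3.16, adjusted p = 1.29e-09) and Sgce (1.71, adjusted p = 0.000274). Within young liver they were also higher for Peg10 (1.06, adjusted p = 0.0245), and Sgce was not called (-0.38, adjusted p = 0.700). The sets were defined from the data and read as male and female liver by Y-linked transcripts and Xist, while the labels give no sex.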

How the results depend on the processing

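Member values under alternatives other than leaving out a library numbered 1620. Of these, 1593 kept their side of the threshold, 12 lost and 13 gained a call, 0 called values reversed sign, 41 uncalled values changed sign and 2 without a test moved. Among 7488 values with 1 library left out, 7428 were unchanged in this sense, 56 lost and 4 gained a call, and 0 called values reversed. The averaged age difference of Meg3 and Rian was called in each alternative fit over all libraries, with only the libraries without Y-linked transcripts and with each library left out. It was not called within libraries with Y-linked transcripts (Meg3 -0.59, adjusted p = 0.605, and Rian -0.90, adjusted p = 0.410, by edgeR). As a mean difference in log2(CPM + 1) it was -0.40 for Meg3 and -0.42 for Rian in libraries with Y-linked transcripts, and -2.45 and -1.93 in the others.

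Counts moved by over 1.5 times as follows, and the cause was not tested beyond the fewer samples some alternatives hold. With DESeq2, genes called for age were 28 before, 16 at 72, 230 at 96, 39 at 120 and 10 at 240 (8, 0, 54, 11 and 2 by edgeR). Over time they were 394 and 186 in young at 96 and 120 (193 and 80 by edgeR) and 54 in old at 240 (19), and 733 for the interaction (391). With only the groups compared, genes called for age were 3 before, 1 at 48 and 0 at 240, against 8, 1530 and 2. Over time they were 482 and 219 in young at 96 and 120, and 225, 989, 458, 167 and 0 in old at 48, 72, 96, 120 and 240, against 3269, 1696, 920, 544 and 19. Any change in old gave 978 (2774). With an additive Y-linked term they were 33, 17, 148, 19 and 13 for age at before, 72, 96, 120 and 240, and 32 in old at 240. With only libraries without Y-linked transcripts, genes called for age were 44, 19, 21, 55 and 7 at before, 72, 96, 120 and 240, and 526 averaged (824). Over time they were 1627 and 61 in young at 48 and 96 (2973 and 193) and 573, 1001 and 8 in old at 96, 120 and 240. Any change in young gave 1845 (2885) and the interaction 108. Total-count scaling gave 32 for age at 96 and 8 in old at 240, and no filter gave 106 for the difference between the Y-linked sets (47).

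Deviations from group means correlated at 0.058 on average between same-numbered libraries of an age (-0.378 to 0.578). Between differently numbered libraries of an age at other times they correlated at -0.0246 (-0.490 to 0.482). These averages show no strong pairing by number and cannot exclude a weak pairing or a shared batch. The replicate block gave 110, 21 and 4 genes for age at 96, 120 and 240, and 1 member (Meg3, -3.70) at 96.

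Members called moved to 2 for age before, 1 at 96, 1 at 240 and 1 each for young at 48 (Rian, -2.08), old at 72 and any change in young with only libraries without Y-linked transcripts. They moved to 0 for age at 48 under total-count scaling, no filter and only the groups compared, to 1 for age at 96 under DESeq2 and only the groups compared, to 1 for old at 72 with only the groups compared, and to 2 for the difference between the Y-linked sets with no filter. Genes most like each member over 36 libraries shared 1 of 3 for Meg3 and Rian and 0 of 3 for the others.

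With 1 library left out, genes called for age ranged from 1 to 15 before, 713 to 2222 at 48, 0 to 20 at 72, 0 to 203 at 96, 0 to 22 at 120, 1 to 4 at 240 and 645 to 1047 averaged. In young they ranged from 1833 to 3408 at 48, 1249 to 2778 at 72, 59 to 360 at 96, 31 to 128 at 120 and 10 to 38 at 240. In old they ranged from 1918 to 3699, 692 to 2128, 236 to 1223, 98 to 911 and 3 to 54 in that order. Any change gave 2076 to 3558 in young and 1859 to 3485 in old, and the interaction 174 to 626. For the Y-linked split, genes called ranged from 862 to 1487 over all libraries, 149 to 307 in young and 585 to 1316 in old. For age they ranged from 116 to 536 within Y-linked libraries and 376 to 855 within the others, and from 21 to 119 for the difference. Members called ranged from 0 to 2 for age at 48, any change in young, young at 48, old at 72 and the difference, from 0 to 1 for age at 96 and old at 120, and from 1 to 3 for the Y-linked split in old. Fits of only the groups compared were not run for comparisons that use all 12 groups. DESeq2, the block and only the groups compared were not run for the Y-linked comparisons.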
